A study of Caenorhabditis elegans with 2 samples.

Results

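The promoters of 49 genes of the cell cycle and of DNA replication were examined for recovery of the tagged protein F10B5.3 in Caenorhabditis elegans larvae. The 49 genes were taken by name from 19973 protein-coding genes on the nuclear chromosomes, and all 49 names were found once in the annotation. They form 2 classes, 24 genes of replication licensing and the replication fork and 25 cyclins, kinases and other regulators. F10B5.3, also named btbz-2, is annotated in RefSeq as a BTB domain-containing protein. Its binding sites were mapped by chromatin immunoprecipitation and sequencing (ChIP-seq) in 1 group with 2 biological replicates, so no condition could be set against another. Whole hermaphrodites of strain OP529 were used as L4 larvae, 48 hours after synchronization as starved L1 larvae. They carried the unc-119(tm4063) mutation on chromosome III and the integrated transgene wgIs529, from which F10B5.3 was expressed with GFP and FLAG at its C-terminus, and an antibody against GFP was used. The labels did not give the promoter of the transgene. Whole animals were used, so occupancy in few cells and weak occupancy in many cannot be told apart.

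Replication is licensed when the origin recognition complex (ORC), CDC-6 and CDT-1 place the MCM helicase on DNA. At the fork the primase starts new strands, the RFC clamp loader places the PCNA clamp, RPA covers single-stranded DNA and ribonucleotide reductase supplies building blocks. Cyclins with their kinases set the time of S phase and mitosis, and the E2F and Rb proteins control transcription of many of these genes. In L4 hermaphrodites the germ line proliferates and a few somatic lineages still divide.

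Positions are in the ce11 build, and each call has a summit, its point of highest enrichment. The authors' relaxed lists held weak as well as strong calls, 30000 in the pool of both replicates, 22211 in replicate 1 and 27642 in replicate 2. They were deposited as peaks and background for the next step, so a call in them alone does not show binding. Irreproducible discovery rate (IDR) analysis left 862 peaks, which were the 862 pooled calls of highest signal. The signal is the authors' value from their peak caller, its scale was not given, and it is used here to describe and rank calls within 1 list. The pooled list was made from both replicates and is not a separate measurement. Every signal below is that of the highest call with its summit within 1000 bp of an annotated transcription start site (TSS) of the gene. A gene is called bound if such a summit was in the IDR set. Worm messenger RNAs are often trans-spliced, so an annotated TSS can lie away from the point where transcription begins.

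Of the 49 genes, 6 were bound (12.2%), against 3.32% of all nuclear protein-coding genes. The 6 were cdc-48.1, pcn-1, cdc-6, rfc-4, rpa-2 and cye-1. A pooled relaxed call of any strength lay within 1000 bp of a TSS of 33 of the 49 (67.3%), against 47.5% of all nuclear protein-coding genes. Of the members with such a call 18.2% were bound, against 6.98% of all genes with one. Since a call is needed before a gene can be bound, both backgrounds are given. The authors' −log10 q-value of the highest pooled call was 3.24 at the bound members. At unbound members it was 2.01 at mcm-4, 1.95 at efl-1, 1.42 at wee-1.3, and 0.986 (cdc-25.2) or less at the rest. Most calls at unbound members may thus be background. The list of replicate 1 held a call of any strength at 31 of the 49 (63.3%), against 41.2% of all genes, and that of replicate 2 at 34 (69.4%), against 46.7%. Among the 862 highest calls of replicate 1 were calls at 6 of the 49, against 3.18% of all genes, and among those of replicate 2 calls at 5, against 3.36%. No test was made of these shares, because the members were chosen with earlier results known and genes are not replicates.

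**Figure D1:**
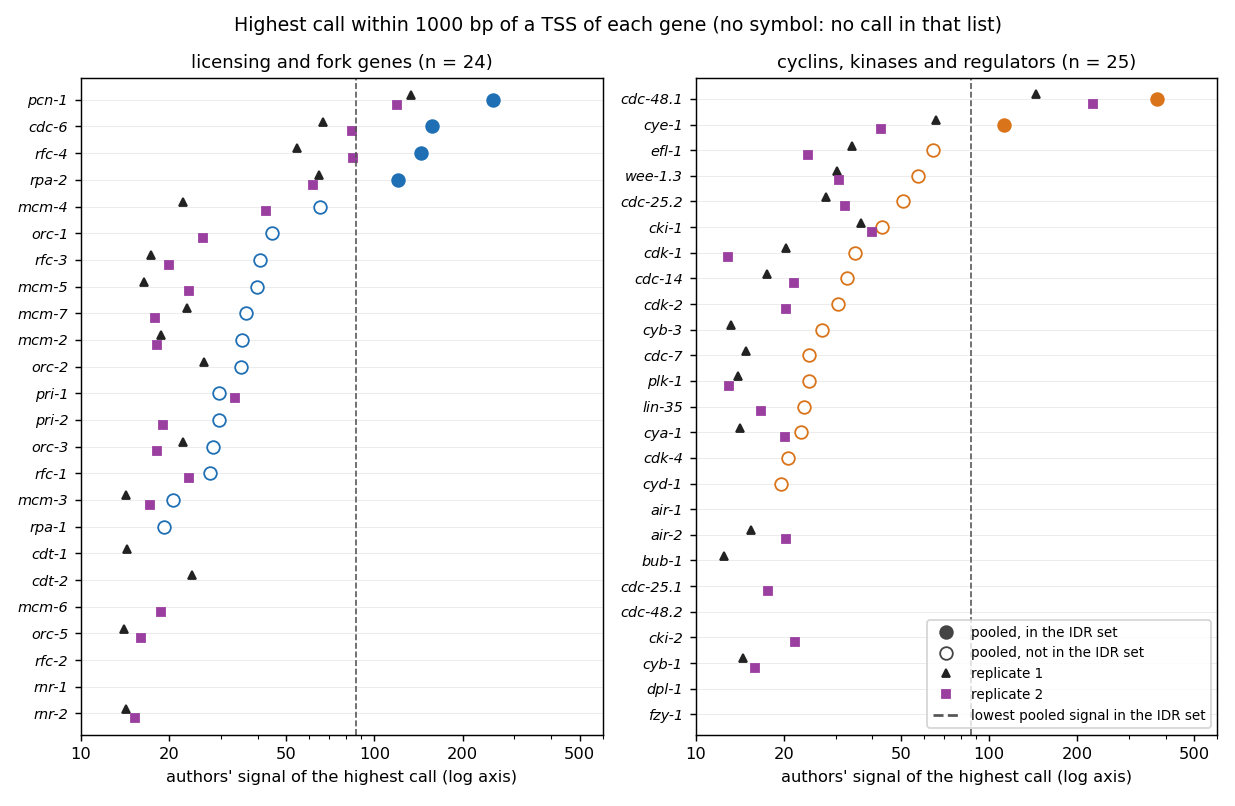
Authors' signal of the highest call within 1000 bp of a TSS for each of the 49 genes, on a log axis, in the pooled list (circles, filled where the call is in the IDR set), replicate 1 (triangles) and replicate 2 (squares). The dashed line marks the lowest pooled signal in the IDR set, 86.5, and no gene lies between cye-1 at 112 and mcm-4 at 65.1.

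The strongest promoter was that of cdc-48.1, which encodes a p97 segregase, an ATPase that pulls ubiquitin-marked proteins out of complexes and takes part in removing CDT-1 and the MCM helicase from chromatin. Its signal was 144 (replicate 1), 226 (replicate 2) and 372 (pool). The call ranked 60 among the pooled calls, and 29 of the 9495 genes with a pooled call had a higher one. The peak covered chrII:10563436-10563698, 263 bp, with its summit between genes and 169 bp upstream of the TSS. No other protein-coding gene had a TSS within 1000 bp of that summit. The paralogue cdc-48.2 had no call in any of the 3 lists.

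Next came pcn-1, which encodes PCNA, the sliding clamp that holds DNA polymerase on its template. Its signal was 133 (replicate 1), 119 (replicate 2) and 253 (pool), where the call ranked 110. The peak at chrIV:4049610-4049816 was 207 bp wide, with its summit 268 bp upstream of the TSS. The only other TSS within 1000 bp, that of wrt-5, a gene of the Warthog family, lay 858 bp away. Of the RFC genes, rfc-4 was bound, with signals of 54.5 (replicate 1), 84.8 (replicate 2) and 144 (pool). Its peak at chrIII:6971827-6972276 had its summit 201 bp upstream of the rfc-4 TSS. The same summit lay 340 bp upstream of the TSS of eef-1A.1, a translation elongation factor gene on the other strand, and the 2 start sites were 541 bp apart. In each of these 3 promoters both replicate summits were within 20 bp of the pooled one.

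The sequence around these 3 summits is shown to give the context of the bound site, in WBcel235, the assembly of ce11, on the strand of the gene. Each run holds 100 bp on either side of the summit, which is base 101. Capitals mark the 4 words searched on both strands, TTTCCCGC and TTTNGCGC as E2F-type sites, TTTGAA as the core of the CHR element that LIN-54 binds, and GAGAGA. No match overlaps another.
pcn-1, chrIV:4049616-4049816, minus strand: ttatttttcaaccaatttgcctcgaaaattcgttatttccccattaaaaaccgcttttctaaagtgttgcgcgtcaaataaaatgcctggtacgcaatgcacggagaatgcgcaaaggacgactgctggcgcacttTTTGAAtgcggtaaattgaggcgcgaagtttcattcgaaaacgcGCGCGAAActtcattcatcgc
rfc-4, chrIII:6971952-6972152, plus strand: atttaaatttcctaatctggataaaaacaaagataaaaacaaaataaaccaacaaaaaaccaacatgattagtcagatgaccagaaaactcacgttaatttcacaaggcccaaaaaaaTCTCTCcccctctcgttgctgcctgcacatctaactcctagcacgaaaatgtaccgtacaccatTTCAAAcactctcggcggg
cdc-48.1, chrII:10563476-10563676, minus strand: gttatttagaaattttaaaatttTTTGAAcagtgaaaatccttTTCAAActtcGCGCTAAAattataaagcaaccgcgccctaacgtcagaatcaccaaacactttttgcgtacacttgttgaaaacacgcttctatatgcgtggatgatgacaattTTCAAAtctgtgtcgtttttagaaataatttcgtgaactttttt

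The E2F-type word TTTNGCGC, with any base allowed at N, was read on the opposite strand as GCGCGAAA at bases 181 to 188 of the pcn-1 run and as GCGCTAAA at bases 54 to 61 of the cdc-48.1 run. The base at N was thus C at pcn-1 and A at cdc-48.1, and binding of E2F to either was not tested. The rfc-4 run held neither E2F-type word. TTTGAA was found once in the pcn-1 run, at bases 137 to 142, once in that of rfc-4 and in 3 places in that of cdc-48.1. GAGAGA was found in the rfc-4 run, as TCTCTC at bases 119 to 124. Over the 33 members with a pooled call, the words were counted within 50 bp and within 100 bp of the summit, beside the 515 IDR summits and the 14146 pooled relaxed summits near a TSS. Within 50 bp, TTTNGCGC was at 3 members (9.09%), mcm-4, cdc-7 and cdc-48.1, beside 2.91% of the IDR summits and 1.75% of the relaxed ones. Within 100 bp it was at 5 (15.2%), with pcn-1 and rpa-1 added, beside 7.77% and 3.41%. TTTCCCGC was at 1 member within 50 bp (3.03%), efl-1, beside 0.971% of the IDR summits and 0.488% of the relaxed ones. Within 100 bp it was at 2 (6.06%), with rpa-1 added, beside 1.94% and 1.02%. The share of members with TTTGAA was below both backgrounds within 50 bp, at 15.2% beside 19.4% of the IDR summits and 22% of the relaxed ones. Within 100 bp it was above both, at 51.5% beside 36.3% and 40%. GAGAGA was at 3 members within 50 bp (9.09%), orc-1, rfc-1 and rfc-4, beside 21.4% of the IDR summits and 8.28% of the relaxed ones. Within 100 bp it was at 7 (21.2%), beside 33.2% and 14.8%. These counts are small and were not tested. A match describes the letters only. The GC content within 50 bp of the summit had a median of 42.1% over the 6 bound members, 48.5% over those 515 IDR summits and 37.6% over the relaxed summits.

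The other 3 bound genes lay on chromosome I. The gene cdc-6, for the ATPase that loads the MCM helicase together with ORC, had signals of 66.7 (replicate 1), 84 (replicate 2) and 157 (pool). Its peak at chrI:4270513-4270625 was 113 bp wide, the summit lay 293 bp upstream of its TSS, and both replicates placed theirs within 23 bp. The divergent gene acin-1, annotated as a SAP domain-containing protein, had its TSS nearer, 86 bp from the summit. Under an assignment to the nearest TSS alone, cdc-6 was no longer counted.

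At rpa-2, for a subunit of the single-strand binding protein RPA, the signal was 64.6 (replicate 1), 61.8 (replicate 2) and 120 (pool). The peak at chrI:4769329-4769778 had its summit 738 bp upstream of the TSS, the farthest upstream of the bound members, and no other protein-coding TSS was within 1000 bp. The highest replicate 2 summit was 140 bp from the pooled one, and rpa-2 was the only bound member with no replicate 2 summit within 100 bp of it. Of the 71 windows of 31 bp within 50 bp of the pooled summit, 49 occur elsewhere in the genome, and the effect of this on the call was not tested.

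At cye-1, for cyclin E, which drives entry into S phase with CDK-2, the signal was 65.7 (replicate 1), 42.8 (replicate 2) and 112 (pool). This call ranked 296 in replicate 1 and 1322 in replicate 2, so it was not among the 862 highest of replicate 2. Its summit was in an intron of cye-1, 988 bp downstream of the nearest annotated TSS and 9 bp from a tRNA gene at chrI:6781803-6781874. There 13 of the 71 windows of 31 bp occur elsewhere in the genome. The share of the tRNA gene in this call was not tested. At the other 4 bound members no such window occurred elsewhere.

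**Figure D2:**
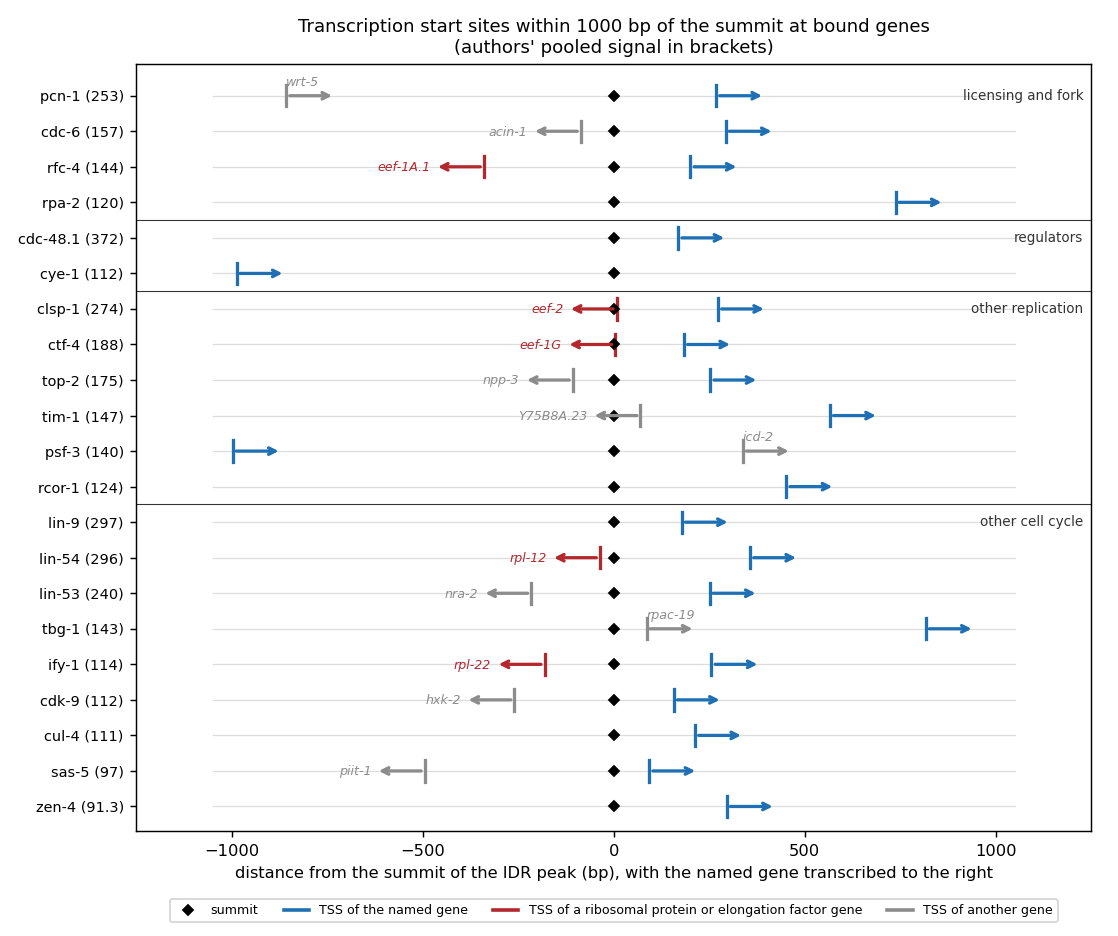
Start sites of protein-coding genes within 1000 bp of the summit of the IDR peak at the 6 bound members and at 15 further bound genes of the pathway, in bp from the summit, with the named gene drawn to the right. At cdc-6 and rfc-4 a divergent gene starts on the other side of the summit, while at cdc-48.1 and rpa-2 the named gene is the only one in range.

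In the licensing and fork class 4 of 24 genes were bound (16.7%), and among the cyclins, kinases and regulators 2 of 25 (8%). The share of all nuclear protein-coding genes was 3.32%. A pooled call lay near 17 of the 24 (70.8%) and near 16 of the 25 (64%). With genes that had no call placed below the list, the median pooled signal was 29.5 over all 24 licensing and fork genes and 23.4 over all 25 regulators. Both medians fall among calls that may be background. Over all 19973 genes the median lay below the list, since 10478 had no pooled call. In replicate 1 the medians were 15.4 for licensing and fork genes and 13.9 for regulators, and in replicate 2 they were 18.5 for licensing and fork genes and 16.7 for regulators. The 2 classes overlapped over almost the whole range of signals. The highest value of all was that of a regulator, cdc-48.1, and the lowest pooled values were 19.2 at rpa-1 among licensing and fork genes and 19.5 at cyd-1 among regulators. Leaving out cdc-48.1 and cdc-48.2, which act beyond the cell cycle, 1 of 23 regulators was bound (4.35%), and that gene was cye-1. This share is near that of all genes. A difference of 2 bound genes between the classes was not tested and rests on few genes.

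**Figure D3:**
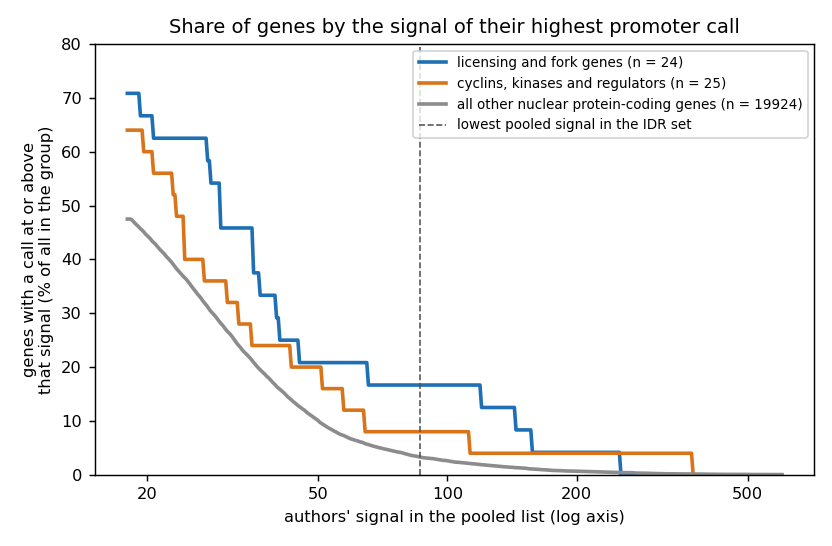
Share of genes, in percent of all genes of the group, whose highest pooled call reached the signal on the log axis, for the licensing and fork genes, the cyclins, kinases and regulators, and all other nuclear protein-coding genes. At the dashed line, the lowest signal of the IDR set, the shares were 16.7%, 8% and 3.3%.

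The highest pooled summits of the licensing and fork genes lay upstream of the nearest TSS in 15 of 17 cases (88.2%), with a median position of -201 bp. For the regulators it was 9 of 16 (56.2%) and -46 bp, and for all nuclear protein-coding genes with a pooled call 53.9% and -51 bp. Among all 663 bound genes 81% had the summit upstream, at a median of -214 bp. For bound members it was 5 of 6, the exception being cye-1. By protein-coding gene models, 17 of the 33 summits were between genes, 9 in coding exons, 5 in introns and 2 in 3′ UTRs. Of the 6 bound summits, 5 were between genes, and of the 27 others 12 were. The member's own TSS was the nearest for 27 of the 33. These counts by gene model and nearest TSS were not made over all genes. Whether they differ from those of other promoter calls is therefore not known.

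**Figure D4:**
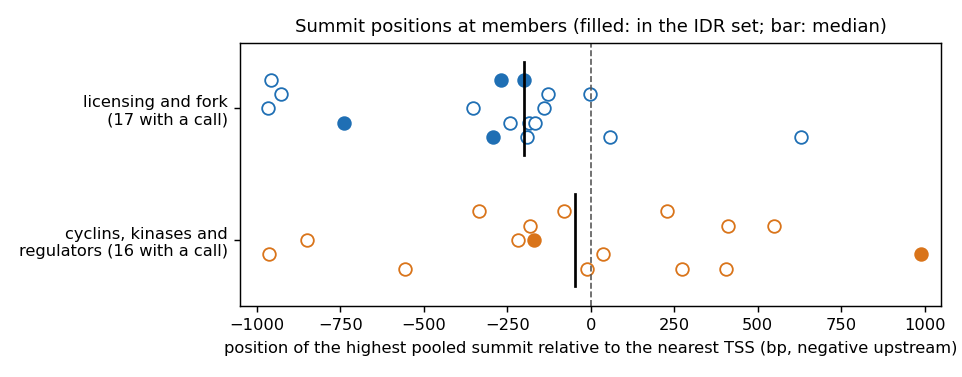
Position of the highest pooled summit relative to the nearest TSS of the gene, in bp, for the 17 licensing and fork genes and the 16 regulators with a pooled call, with filled circles for summits in the IDR set, bars for medians and vertical spread added only to separate the points. The medians are -201 and -46 bp, and the filled point at 988 bp is cye-1.

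Among the genes of origin recognition and loading, cdc-6 was the one bound of 7 (14.3%), against 3.32% of all genes. Shares in groups this small, here and below, rest on few genes. The ORC subunit genes orc-1, orc-2 and orc-3 had pooled signals of 44.9, 35.2 and 28.1. The orc-1 call was absent from replicate 1 and had a signal of 26 in replicate 2, and its summit was nearer to the TSS of the neighbour dhs-11, 80 bp away, than to that of orc-1, at 184 bp. The orc-2 call was absent from replicate 2 and had a signal of 26.3 in replicate 1. Each of these 2 rests on the pool and 1 replicate. The genes orc-5, cdt-1, for the loading factor CDT-1, and cdt-2, for the ubiquitin ligase adaptor that targets CDT-1, had no pooled call, and their calls in replicate 1 had signals of 14, 14.4 and 24.

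None of the 6 MCM helicase genes was bound, and 5 had a pooled call. Of all genes 3.32% were bound, and of all genes with a pooled call 6.98%. A count of 0 in so few genes is near those shares. The highest was mcm-4, with signals of 22.3 (replicate 1), 42.7 (replicate 2) and 65.1 (pool), 127 bp upstream of its TSS. This was the highest value of any gene outside the IDR set among the 49. At mcm-5 the pooled signal was 39.9, and calls within 100 bp of that summit had signals of 16.4 (replicate 1) and 19.6 (replicate 2). The highest replicate 2 call, 23.3, lay 889 bp away. The pooled summit lay in a coding exon of its neighbour nth-1, 25 bp from the TSS of that gene and 958 bp from that of mcm-5. At mcm-7 the signals were 22.9 (replicate 1), 17.9 (replicate 2) and 36.5 (pool), with the summit in a coding exon of mcm-7. The genes mcm-2 and mcm-3 reached 35.4 and 20.6 in the pool, and mcm-6 had a call only in replicate 2, with a signal of 18.8. The mcm-3 summit was 966 bp from its TSS, in an intron of C25D7.15. The 6 subunits form 1 ring, and their promoter values were spread from no pooled call to 65.1.

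Of the 5 genes for the clamp and its loader, pcn-1 and rfc-4 were bound (40%), against 3.32% of all genes. The other loader genes were weak, as rfc-3 had signals of 17.4 (replicate 1), 20 (replicate 2) and 40.7 (pool), with the highest replicate 1 summit 149 bp from the pooled one and a replicate 1 call of 14.7 within 100 bp of it. The gene rfc-1 had 27.6 in the pool and no call in replicate 1, and rfc-2 had no call in any list. Among the genes for RPA, primase and ribonucleotide reductase, rpa-2 was the one bound of 6 (16.7%), against the same 3.32%. The large RPA subunit gene rpa-1 reached 19.2 in the pool with no call in either replicate. Both primase genes, pri-1 and pri-2, had pooled signals of 29.5, with no call in replicate 1. Within 100 bp of the pooled summits, replicate 2 had calls of 18.5 at pri-1 and 18.2 at pri-2, and its higher calls, 33.6 and 19, lay 991 bp and 1007 bp away. The ribonucleotide reductase gene rnr-1 had no call in any list, and rnr-2 only weak ones of 14.2 in replicate 1 and 15.3 in replicate 2. The RFC genes, and rpa-1 and rpa-2, thus stood far apart in pooled signal. The 2 primase genes had the same pooled signal, and neither ribonucleotide reductase gene had a pooled call.

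Apart from cye-1, the cyclin genes had low values. The pooled signals were 27 at cyb-3, 22.9 at cya-1 and 19.5 at cyd-1, for cyclins B3, A and D, and cyb-1, for cyclin B, had no pooled call. Replicate 2 had no call at cyb-3, and neither replicate had one at cyd-1. None of the 9 kinase genes was bound, which in so few genes is near the 3.32% of all genes. The highest was wee-1.3, for the inhibitory kinase of CDK-1, with signals of 30.3 (replicate 1), 30.7 (replicate 2) and 57.4 (pool), 558 bp upstream of the TSS. The highest replicate 1 summit was 171 bp from the pooled one, and a replicate 1 call of 17.3 lay within 100 bp of it. At cdk-1 itself the signals were 20.4 (replicate 1), 12.9 (replicate 2) and 35 (pool), and the summit lay in a coding exon of the neighbour iff-1, a gene for initiation factor 5A. The pooled signals were 30.6 at cdk-2, 24.4 at cdc-7, the kinase that fires origins, 24.3 at the Polo kinase gene plk-1 and 20.7 at cdk-4. Of these, cdk-2 had no call in replicate 1, cdc-7 none in replicate 2 and cdk-4 none in either. The cdk-4 summit was 965 bp from its TSS, in an intron of F18H3.1 and 213 bp from the TSS of that gene. The Aurora kinase gene air-1 had no call in any list, and air-2 and the checkpoint kinase gene bub-1 had none in the pool.

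Of the inhibitors, phosphatases, E2F and Rb genes and the anaphase gene fzy-1, none of 9 was bound. In so few genes this is near the 3.32% of all genes. The cyclin-dependent kinase inhibitor gene cki-1 had signals of 36.7 (replicate 1), 40 (replicate 2) and 43.1 (pool). The replicate 1 summit was 722 bp from the pooled one, so these values came from more than 1 site. An IDR peak with a signal of 113 had its summit at chrII:7809357, 1883 bp upstream of the cki-1 TSS and outside the range used here, with no protein-coding TSS within 1000 bp of it. The phosphatase gene cdc-25.2, for an activator of CDK-1, had signals of 27.8 in replicate 1 and 50.9 in the pool, 36 bp downstream of a TSS in its own coding exon. Replicate 2 had a call of 25 within 100 bp of that summit, and its highest, 32.3, lay 16264 bp away at another annotated TSS of the gene. The phosphatase gene cdc-14 reached 32.7 in the pool and the Rb gene lin-35 23.4, with no replicate 1 call at lin-35. The genes cdc-25.1 and cki-2 had a call only in replicate 2, with signals of 17.6 and 21.8. The E2F partner gene dpl-1 and fzy-1, for the Cdc20 activator of the anaphase-promoting complex, had no call in any list.

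The E2F gene efl-1 had the highest pooled signal of the regulators outside the IDR set. Its signals were 34.1 (replicate 1), 24.1 (replicate 2) and 64.2 (pool), 218 bp upstream of its TSS, and 12.3% of genes with a pooled call had a higher one. The sequence is shown because its own promoter held the E2F-type word TTTCCCGC at bases 90 to 97, 11 bp before the summit at base 101. Capitals mark the same words as above, with 3 matches to TTTGAA on the opposite strand.
efl-1, chrV:16965793-16965993, minus strand: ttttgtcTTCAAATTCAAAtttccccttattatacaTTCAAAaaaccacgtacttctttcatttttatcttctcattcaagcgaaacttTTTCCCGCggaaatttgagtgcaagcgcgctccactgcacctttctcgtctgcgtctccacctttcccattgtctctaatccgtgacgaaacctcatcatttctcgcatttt

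**Figure D5:**
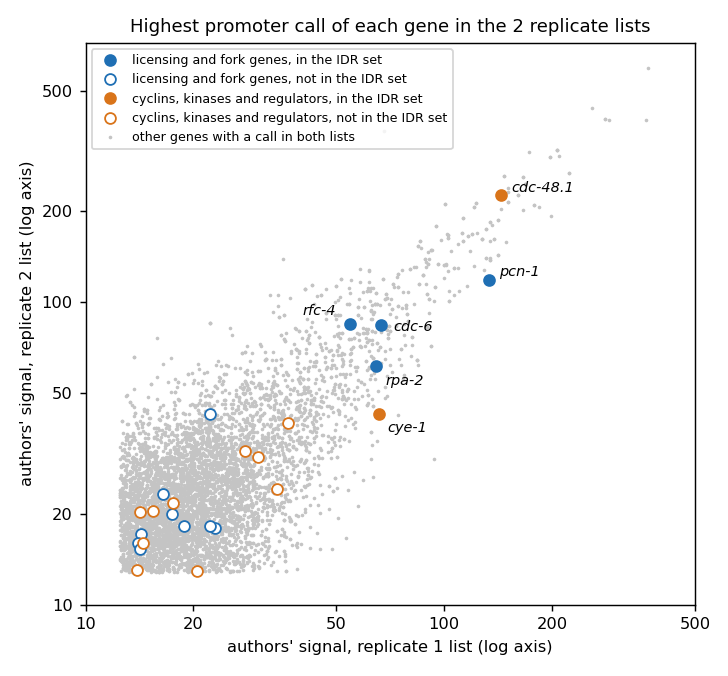
Authors' signal of the highest call within 1000 bp of a TSS in the list of replicate 1 and in that of replicate 2, both on log axes, for the 25 members with a call in both lists and for other genes. The lowest bound members are rfc-4 at 54.5 in replicate 1 and cye-1 at 42.8 in replicate 2, beside highest values of 36.7 (cki-1) and 42.7 (mcm-4) among unbound members.

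Further genes of the pathway were taken from 2 lists of names. Of 42 other replication genes 33 were found in the annotation, and 6 of the 33 were bound (18.2%). Of 83 other cell cycle genes 80 were found, and 9 were bound (11.2%). Of all nuclear protein-coding genes 3.32% were bound. A pooled call of any strength lay near 90.9% of these replication genes and 77.5% of these cell cycle genes, against 47.5% of all genes. Of those with such a call 20% and 14.5% were bound, against 6.98% of all genes with one. The bound replication genes were clsp-1, for Claspin (pooled signal 274), ctf-4 (188), top-2, for topoisomerase II (175), tim-1, for Timeless (147), psf-3, for a GINS subunit (140), and rcor-1 (124). The last encodes a REST corepressor and not a fork protein. The psf-3 summit lay 998 bp downstream of its TSS and 338 bp upstream of that of icd-2. In replicate 1 the highest psf-3 call ranked 1177, and the one within 100 bp of the pooled summit ranked 4732. Replicate 2 had no summit within 1000 bp of the psf-3 TSS. As the pooled summit lies at the edge of that range, a replicate 2 call just beyond it would not have been counted. That of tim-1 was 155 bp from the snRNA gene sls-2.8 and lay in a coding exon of Y75B8A.23. It was 70 bp from the TSS of Y75B8A.23 and 566 bp from that of tim-1. The top-2 summit was 107 bp from the TSS of npp-3 and 253 bp from that of top-2.

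The bound cell cycle genes included 3 of the DRM complex, which joins the E2F and Rb proteins to repress cell cycle genes. Their pooled signals were 297 at lin-9, 296 at lin-54 and 240 at lin-53, above every one of the 49 genes except cdc-48.1 and, for lin-53, pcn-1. The lin-53 summit was nearer to the TSS of nra-2, 216 bp away, than to that of lin-53, at 251 bp. That of lin-54 was nearer to the TSS of rpl-12. Under an assignment to the nearest TSS alone, lin-53 and lin-54 were no longer counted. The DRM genes lin-52 and lin-37, with pooled signals of 41.8 and 19.2, were not bound, and neither were the complex's own E2F, DP and Rb genes, efl-1, dpl-1 and lin-35. The other bound cell cycle genes were tbg-1, for gamma-tubulin (143), ify-1, for securin (114), cdk-9 (112), cul-4, for a ubiquitin ligase scaffold (111), sas-5, for centriole assembly (97), and zen-4, for a kinesin of cytokinesis (91.3). The zen-4 summit was 43 bp from the snoRNA gene M03D4.78. That of tbg-1 was 86 bp from the TSS of rpac-19 and 817 bp from that of tbg-1. The DRM genes were chosen for comment after their values were seen.

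The lin-9 and lin-54 sites are shown because they are the strongest of these. The lin-54 run is cut where annotated exons begin, and its summit is at base 36.
lin-9, chrIII:8904209-8904409, minus strand: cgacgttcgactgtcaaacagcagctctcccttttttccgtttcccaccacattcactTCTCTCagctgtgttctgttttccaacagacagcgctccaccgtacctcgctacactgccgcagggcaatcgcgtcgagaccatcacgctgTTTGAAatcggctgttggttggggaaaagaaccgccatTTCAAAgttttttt
lin-54, chrIV:13240652-13240787, plus strand: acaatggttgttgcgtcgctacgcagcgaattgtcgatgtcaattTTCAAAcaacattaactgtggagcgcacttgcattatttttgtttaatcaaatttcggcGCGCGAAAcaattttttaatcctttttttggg

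The lin-54 run held the same GCGCGAAA as that of pcn-1, at bases 105 to 112, and TTTGAA on the opposite strand at bases 46 to 51. The lin-9 run held TTTGAA in 2 places and GAGAGA on the opposite strand, and no E2F-type word.

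Several of these promoters are shared with genes of protein synthesis. Of the 21 bound genes, 6 members and 15 others, 5 had a summit that was also within 1000 bp of the TSS of a gene named rpl, rps, rla, eef, eif or rack, which are ribosomal protein and translation factor genes (23.8%). They were rfc-4 with eef-1A.1, clsp-1 with eef-2, ctf-4 with eef-1G, lin-54 with rpl-12 and ify-1 with rpl-22. Among all other bound genes it was 17 of 642 (2.65%). Of the 104 unbound genes of these lists with a pooled call it was 0, near the 0.676% (59 of 8728) of all other unbound genes with one. The initiation factor gene iff-1 beside cdk-1 carries none of these names and was not counted. The summit was 273 bp from the TSS of clsp-1 and 8 bp from that of eef-2. It was 184 bp from the TSS of ctf-4 and 4 bp from that of eef-1G, and 357 bp from the TSS of lin-54 and 36 bp from that of rpl-12. Only at rfc-4 of these 5 was the pathway gene the nearer one. This count was chosen after the values were seen, no test was made, and the files cannot tell to which of 2 neighbours a peak belongs. Under an assignment of each summit to the nearest TSS alone, 5 of the 49 (10.2%), 1 of the other replication genes (3.03%) and 5 of the other cell cycle genes (6.25%) were bound, against 2.44% of all genes. The share of the other replication genes was then near that of all genes.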

How the data were processed

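Peak lists were analysed in their ce11 versions, and ce10 lists were not used. Per the notes deposited alongside, calls were made by the authors on the alignment of each replicate and on the pooled alignments, each with a control alignment not analysed here, and the IDR set was derived from these lists. Aligner, caller, tool versions and IDR cut-off are not given in the sources used here. Signal deposited by the authors is a value per call of unstated scale. The authors also deposited, in the narrowPeak column for it, a −log10 q-value, which was 3.24 for all 862 IDR peaks and could not rank them. The summit offset deposited by the authors placed each summit. Depth is unknown, since the lists hold no read counts.

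All calls lay inside the WBcel235 chromosome lengths. Gene models came from Ensembl release 115 and sequences from the RefSeq copy of WBcel235. A call was given to every gene with any annotated TSS within 1000 bp of its summit (Python 3.11.15). The assignment was tested on simulated calls. Only counts, shares and medians were computed, with no test, since there is 1 group. The labels call the replicates biological and say no more of separate cultures.

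The members and the lists were chosen with earlier results of these data known. Full values were given for every bound member, then for the 5 highest unbound members of each class. Alternatives changed the distance (500 and 2000 bp), the assignment, the peak set, the replicates and calls near small RNA genes (200 bp).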

Additional observations from a re-analysis of the deposited data

How the results depend on the processing

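The count of 6 bound members was 4 (8.16%, against 2.47% of all genes) at 500 bp, where cye-1 and rpa-2 were lost, and 7 (14.3%, against 4.9%) at 2000 bp, where cki-1 was gained. It was also 4 (8.16%, against 1.85%) in the upper 431 peaks of the IDR set, which lost the same 2 genes. It was 5 (10.2%) with the nearest TSS only, against 2.44% of all genes, and without calls near small RNA genes, against 2.8%. Counting any overlap of a peak with the 1000 bp window, an alternative added after seeing the data, gave 7. The share of all genes was not computed for it. With 1 replicate left out, the count ranged from 5 to 6, and cye-1 was lost when replicate 1 was left out. Counting only summits near no other protein-coding TSS, also added after seeing the data, left 3 members, cdc-48.1, rpa-2 and cye-1. The summit was thus shared at 50% of the bound members, near the 52.5% of all bound genes. The 4 bound licensing and fork genes ranged from 3 to 4. The 2 bound regulators became 1 (4%) at 500 bp, in the upper 431 peaks and without calls near small RNA genes. The shares of all genes are those given above. Without cdc-48.1 and cdc-48.2 the regulators had 1 bound gene (4.35%), against 3.32% of all genes. With a replicate left out the count ranged from 1 to 2. The 6 bound other replication genes became 1 with the nearest TSS only, 3.03% against 2.44% of all genes, which is near that background. The 9 bound other cell cycle genes became 5 with the nearest TSS only (6.25%, against 2.44%) and 4 in the upper 431 peaks (5%, against 1.85%), and ranged from 6 to 8 with a replicate left out. The median signal over all 49 members, 27, was 19.5 at 500 bp and 32.7 at 2000 bp. Widening the motif window from 50 to 100 bp on either side gave 2 members with TTTCCCGC in place of 1, 5 with TTTNGCGC in place of 3, 17 with TTTGAA in place of 5 and 7 with GAGAGA in place of 3. A wider window holds more letters, and the background shares of each word rose as well. The reason for the larger rise of TTTGAA at members was not tested. Requiring a replicate summit within 100 bp of the pooled summit left 21 of 24 members in replicate 1 and 22 of 27 in replicate 2. Depth is unknown, so a missing call does not show absence of binding.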
